A study of Rattus norvegicus with 3 samples.

Results

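The genes described here are homeobox and T-box transcription factors that carry positional identity in the embryo. They were taken by symbol: every Hox, Dlx, Msx, Pitx, Pax, Barx, Lhx, Sine oculis (Six3, for instance), Tbx, Alx, Irx, Meis, Pbx and Prrx gene with a number, measured by a probe set (several short probes whose signals are joined to 1 value) that names exactly 1 gene. The rule found 65 genes with 83 probe sets, out of 14217 named genes. The current rat gene table (RefSeq, assembly GRCr8) holds 107 genes with such symbols, and the other genes were not analysed here. The members comprised 22 Hox genes, 11 of a list of 19 genes of the jaw and teeth, 6 TALE cofactors (Meis and Pbx), 6 T-box genes and 20 others.

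RNA came from wild type male Sprague Dawley rats, 9 weeks old per the labels, with 1 array for each of 3 laser-microdissected tissues. Peri-implant connective tissue (PICT) surrounded an implant of titanium alloy that replaced an upper first molar pulled at 5 weeks of age, and was taken 4 weeks later. Oral mucosa connective tissue (OMCT) came from the same kind of extraction site, left without an implant for 4 weeks, and periodontal connective tissue (PCT) from around an upper first molar in place. The series' design text once calls the PCT animals mice, whereas the labels give rat for all samples. The sources used here do not give the number of animals per array.

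In vertebrate embryos the Hox genes are switched on along the trunk and hindbrain and mark position from head to tail. The crest cells that build the upper and lower jaw carry no Hox expression and are patterned instead by Dlx, Msx, Pitx, Barx, Alx, Prrx and related genes, while Meis and Pbx proteins bind DNA together with Hox and other homeodomain proteins. Adult fibroblasts are known to keep part of such a code. The comparison of tissue around an implant, at a healed socket and around a tooth asks how the level of these genes differed between sites of 1 jaw.

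Values are deposited intensities on a linear scale. A single array stood for each tissue, so there is no measure of the spread among animals, no test was possible, no p-value exists, and array and tissue cannot be told apart. A relative log2 difference compares log2(intensity + 8.56) after each array's median was subtracted, since the log2 medians of the arrays differed by 0.60 (PICT minus PCT), -0.02 (PICT minus OMCT) and 0.62 (OMCT minus PCT). A gene passed as higher or lower at a relative log2 difference of 1 or more (2-fold) when the brighter array of the pair was at or above its median of 56.5 in PICT, 57.4 in OMCT and 34.3 in PCT. Where a bright gene had more than 1 probe set, these differed from each other with an SD of 0.44 in PICT minus PCT, 0.40 in PICT minus OMCT and 0.41 in OMCT minus PCT. A gene without signal on either array would get -0.60 for PICT minus PCT and -0.62 for OMCT minus PCT from centring alone, so differences of dim genes from PCT are not read. The 3' over 5' ratio of the hexokinase controls, a sign of RNA breakdown when high, was 1.58 in PICT, 1.97 in OMCT and 2.80 in PCT, and its part in the differences from PCT was not tested. In bulk tissue, fewer cells of a type and less RNA per cell cannot be told apart.

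Most members were dim, and the bright ones were mainly genes of the jaw list and the TALE cofactors. Of 65 members, 25 (38.5%) were at or above the array median on at least 1 array, against 69.3% of all genes, and 12 (18.5%) were so on all 3 arrays, against 56.4% of all genes. In the jaw list 10 of 11 genes reached the median on at least 1 array, in the TALE group 5 of 6, in the T-box group 3 of 6, among the others 5 of 20 and among Hox genes 2 of 22. On PICT 0 of 22 Hox genes lay at or above the median, against 62.9% of all genes, on OMCT 2 against 63.3%, and on PCT 2 against 63.2%. The probe set median is a level within an array and not a detection call, and brightness also depends on each probe set, so these counts describe groups and rank no gene above another.

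**Figure D1:**
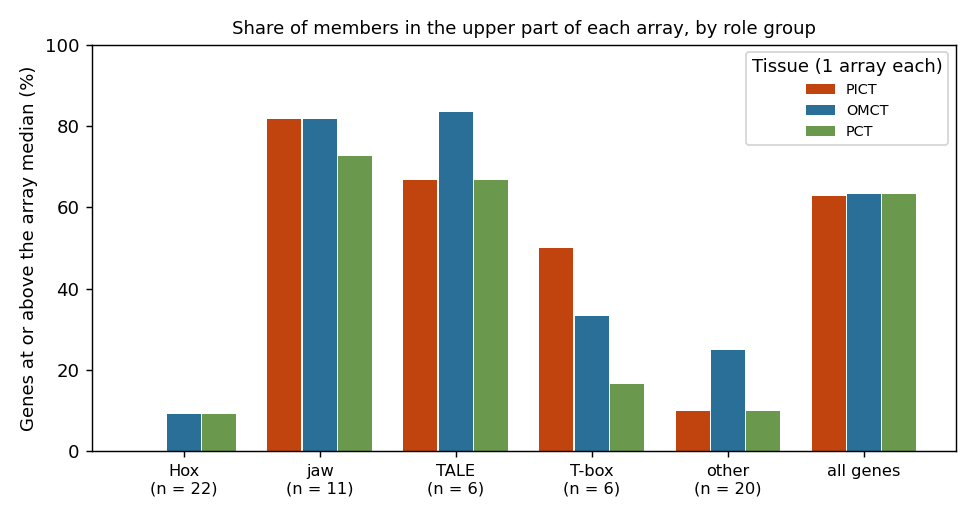
Share of genes at or above the median probe set of each array (percent, axis from 0), by role group and for all 14217 genes, with 1 bar per tissue. Hox bars are 0% in PICT and 9.09% in OMCT and in PCT, while jaw list bars are 81.8% in PICT and OMCT and 72.7% in PCT.

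Relative to the array medians, 16 members passed the 2-fold rule in at least 1 of 3 comparisons. That was 16 of 65 members, against 2372 of all 14217 genes. Of those at or above a median on at least 1 array, it was 64.0% of 25 members and 24.1% of 9854 genes. Both shares use the same level and the same rule, but the 2 sets are not alike in level. All 3 arrays reached the median for 12 of the 25 members and for 8022 of the 9854 genes. The part of this in the 2 shares was not tested. The comparisons share arrays, so their counts are not independent. In PICT minus PCT 1 member was higher and 4 were lower, against 3.98% and 3.37% of all genes. In PICT minus OMCT 3 were higher and 6 lower, against 4.15% and 4.46%, and in OMCT minus PCT 7 were higher and 4 lower, against 5.66% and 4.81%. As deposited, without centring, PICT minus PCT gave 6 higher and 2 lower members, against 14.1% and 0.9% of all genes, and OMCT minus PCT gave 12 higher and 2 lower, against 17.6% and 2.1%. The members' median relative difference was -0.11 for PICT minus OMCT, against -0.04 for all genes. Against PCT the sign of the members' median depends on centring: it was -0.44 after centring and 0.17 without it for PICT minus PCT, and -0.28 and 0.34 for OMCT minus PCT, so no direction is read from it. Dlx3, Meis2 and Msx2 were low in OMCT against both other tissues (3 members, against 2.27% of all genes), and Prrx1 and Prrx2 were high there (2 members, against 2.02%). Hoxd9, Irx1 and Tbx2 were low in PICT (3 members, against 1.03%), and Pitx1 was high in PCT (1 member, against 0.935%).

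**Figure D2:**
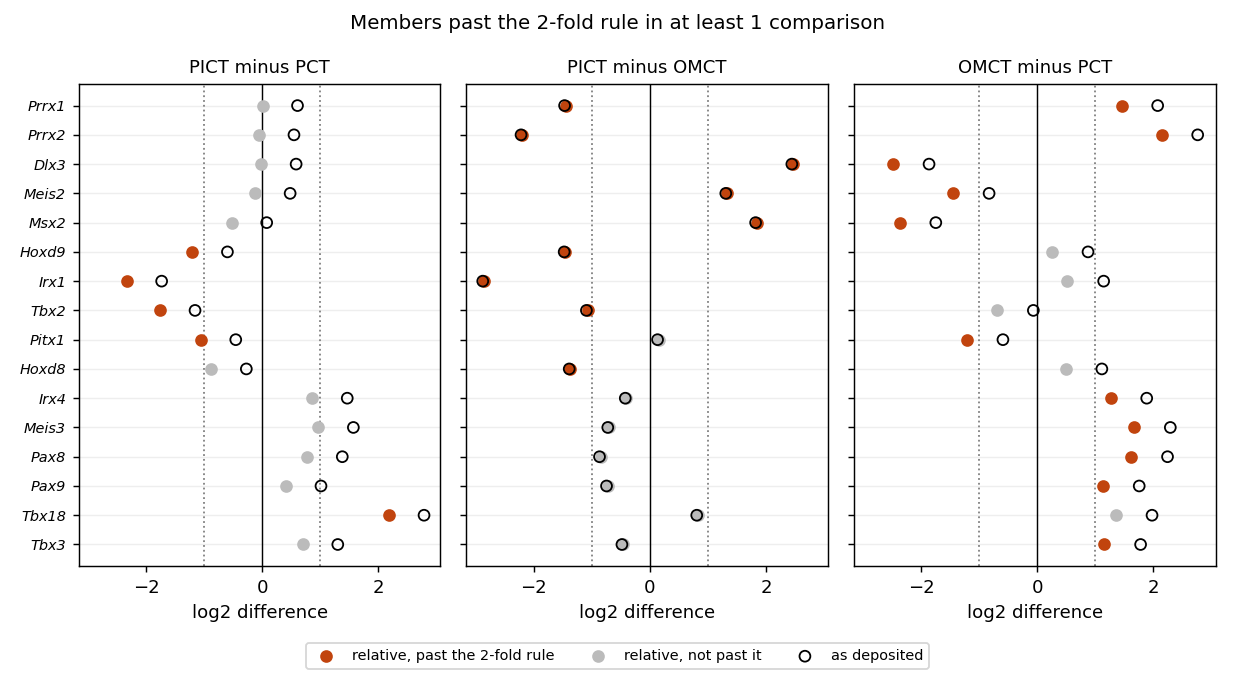
Log2 differences of the 16 members past the 2-fold rule in at least 1 comparison, for PICT minus PCT, PICT minus OMCT and OMCT minus PCT; filled points are relative to the array medians (red where the rule was passed), open circles are as deposited, and dotted lines mark -1 and 1. Prrx1 and Prrx2 lie left of -1 in PICT minus OMCT and right of 1 in OMCT minus PCT, and Dlx3, Meis2 and Msx2 lie the opposite way.

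In the jaw list, the distal-less and muscle segment genes were split between genes that differed little and genes that were low at the healed socket. Dlx3, which drives differentiation of epidermis, hair and tooth tissues, had an intensity of 732 in PICT, 127 in OMCT and 485 in PCT. Its relative log2 difference was 2.47 for PICT minus OMCT and -2.48 for OMCT minus PCT, and -0.02 for PICT minus PCT, so the OMCT array stood apart from both others. Msx2, a repressor with roles in skull bone, tooth enamel epithelium and hair, had 99.0 in PICT, 21.8 in OMCT and 93.3 in PCT, with differences of 1.84 for PICT minus OMCT and -2.37 for OMCT minus PCT. Its other probe sets ran the same way. The brighter of them gave just over 1 for PICT minus OMCT and -1.54 for OMCT minus PCT, and the dimmer gave 0.31 and -0.94, under 2-fold in both comparisons.

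Msx1, the paralog needed in mice for palate closure and for teeth to pass the bud stage, was not low in OMCT. It had 312 in PICT, 462 in OMCT and 202 in PCT, with relative differences of 0.01 for PICT minus PCT, -0.53 for PICT minus OMCT and 0.54 for OMCT minus PCT. As deposited, OMCT minus PCT was 1.16 for Msx1, past 2-fold. Dlx1, a patterning gene of the upper jaw in mice, had 58.3 in PICT, 92.2 in OMCT and 59.1 in PCT, and Dlx5, a patterning gene of the lower jaw in mice, had 78.2, 109 and 84.0 in the same order. Neither passed 2-fold in any comparison, with differences between -0.62 and -0.05 for Dlx1 and between -0.70 and -0.28 for Dlx5. The probe sets of this upper-jaw and this lower-jaw gene both lay above the median on all 3 arrays of maxillary tissue. Dlx1 in PICT was only just above it (58.3 against 56.5), and that level is not a detection call.

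The paired-related genes ran opposite to Dlx3 and Msx2. Prrx1, a homeobox gene of limb and face mesenchyme that is also used to mark fibroblasts, had 224 in PICT, 633 in OMCT and 144 in PCT. Its relative difference was -1.45 for PICT minus OMCT, 1.45 for OMCT minus PCT and 0.01 for PICT minus PCT. A second Prrx1 probe set gave -1.53, 1.25 and -0.28 for these comparisons. Prrx2, the closest relative of Prrx1, had 48.6 in PICT, 257 in OMCT and 30.5 in PCT, with -2.20 for PICT minus OMCT and 2.14 for OMCT minus PCT. Its other probe set was dim, at 3.78 in PICT, 3.06 in OMCT and 10.3 in PCT, and does not repeat the pattern. OMCT was thus the high array for both paralogs by their brightest probe sets, and after centring the PICT and PCT arrays differed by less than the spread between probe sets. As deposited, PICT minus PCT was 0.61 for Prrx1 and 0.55 for Prrx2, above that spread and under 2-fold.

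Marker lists moved along with these genes. Of 11 fibroblast markers, 5 passed as lower and 0 as higher for PICT minus OMCT, against 4.46% and 4.15% of all genes. For OMCT minus PCT 7 passed as higher and 0 as lower, against 5.66% and 4.81%. The fibroblast sums were 28026 in PICT, 45189 in OMCT and 21775 in PCT, and the collagens Col1a1, Col1a2 and Col3a1 weighed most in them. All marker sums add deposited intensities without scaling. They therefore carry the lower median of the PCT array (34.3, against 56.5 in PICT and 57.4 in OMCT). An order against PCT can change with scaling. Of 11 markers of upper oral epithelium, 10 passed as higher and 0 as lower for PICT minus OMCT. For OMCT minus PCT 10 passed as lower and 0 as higher, with the same shares of all genes beside them. The upper-layer sums were 28292 in PICT, 4691 in OMCT and 25273 in PCT. The basal keratinocyte sums were 20649 in PICT, 22888 in OMCT and 25048 in PCT, so epithelial RNA was on all 3 arrays of tissues labelled as connective. No fibroblast, basal or upper-layer marker had an intensity of 0; Ivl was the 1 marker of these lists not above the brightest bacterial trp control probe set (8.36 in PICT, 3.60 in OMCT and 5.71 in PCT), and this on PICT alone. The part of tissue makeup in the Dlx3, Msx2, Meis2 and Prrx differences was not tested.

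The promoters of Prrx1, Prrx2 and Msx2 are shown because these genes set the OMCT array apart in opposite directions. They are the 250 bases before the gene start, from RefSeq on GRCr8: chr13:78204074-78204323 (minus strand) for Prrx1, chr3:34530081-34530330 (plus strand) for Prrx2 and chr17:11102034-11102283 (plus strand) for Msx2. Capitals mark matches, on either strand, to the homeodomain cores TAATTA and TAATTG, the E-box CACGTG and the GC box GGGCGG; no matches overlap in these windows.
Prrx1: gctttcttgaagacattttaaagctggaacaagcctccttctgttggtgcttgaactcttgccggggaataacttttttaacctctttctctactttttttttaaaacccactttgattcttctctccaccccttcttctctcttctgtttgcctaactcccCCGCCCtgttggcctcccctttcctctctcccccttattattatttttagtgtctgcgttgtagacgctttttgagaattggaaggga
Prrx2: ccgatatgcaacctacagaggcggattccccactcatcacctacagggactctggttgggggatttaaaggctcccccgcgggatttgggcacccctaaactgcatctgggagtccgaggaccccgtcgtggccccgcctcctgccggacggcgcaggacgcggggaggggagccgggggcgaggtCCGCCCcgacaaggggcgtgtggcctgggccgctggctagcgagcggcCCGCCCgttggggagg
Msx2: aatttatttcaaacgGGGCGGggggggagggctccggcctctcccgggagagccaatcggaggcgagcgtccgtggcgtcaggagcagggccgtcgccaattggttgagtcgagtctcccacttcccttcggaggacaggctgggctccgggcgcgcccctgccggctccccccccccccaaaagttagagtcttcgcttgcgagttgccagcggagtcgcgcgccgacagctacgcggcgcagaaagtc
The Prrx1 window held 1 match, the Prrx2 window 2 and the Msx2 window 1, each to GGGCGG, which 30.5% of all 33469 promoter windows of this length hold. The Prrx paralogs differed in base content although their signals ran together: Prrx1 was 43.2% G or C with 4 CpG dinucleotides, and Prrx2 was 70.0% with 23. Msx2 was 67.6% with 27, against medians of 51.2% and 5 over all windows.

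Among the remaining jaw genes, Pitx1 and Pax9 passed the 2-fold rule in at least 1 comparison, and Alx1 did not. Pitx1, a gene of oral ectoderm, lower jaw and hindlimb, had 338 in PICT, 307 in OMCT and 467 in PCT. Relative to the array medians it was lower in PICT than in PCT (-1.06) and lower in OMCT than in PCT (-1.21), but as deposited the differences were -0.46 and -0.59, under 2-fold. Pax9, which marks the mesenchyme where teeth form, had 69.3 in PICT, 122 in OMCT and 30.0 in PCT, and was higher in OMCT than in PCT (1.13). That fell under 2-fold, at 0.76, with a larger offset at the median of all values. Alx1, a gene of the frontonasal region, had 114 in PICT, 67.2 in OMCT and 76.4 in PCT, with no difference past 2-fold.

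Barx1, a mesenchymal gene of molar-bearing jaw and stomach, had 8.06 in PICT, 54.4 in OMCT and 23.8 in PCT. Its PICT signal was not above the trp control, and the brighter arrays lay under their medians, so it was not counted. It was the 1 jaw list member below the median on all 3 arrays.

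**Figure D3:**
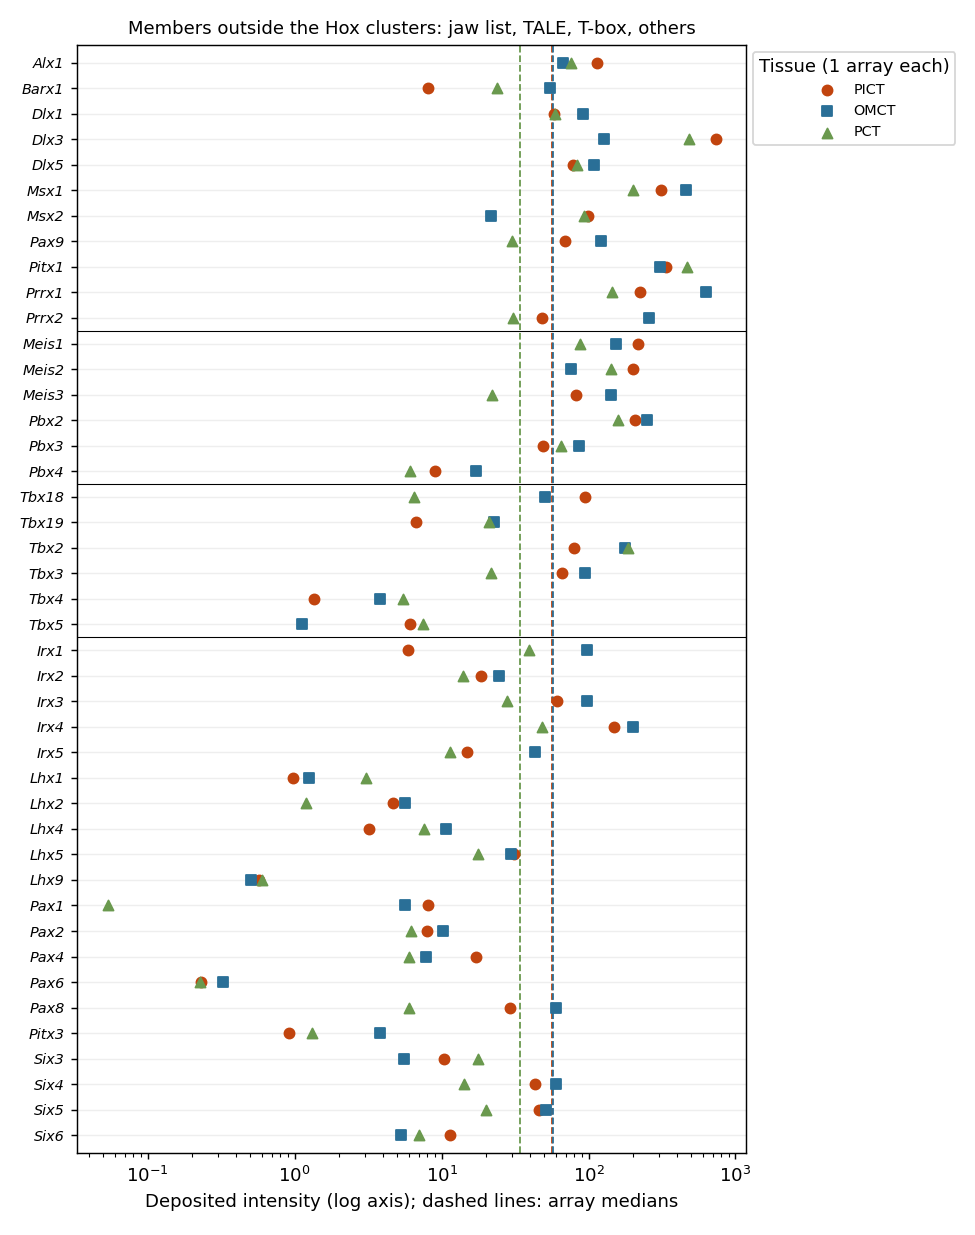
Deposited intensity (log axis) of the 43 members outside the Hox clusters, 1 point per tissue, grouped from top to bottom as jaw list, TALE, T-box and other genes; dashed lines are the array medians, where the PICT and OMCT lines nearly coincide. The OMCT squares are far left of the other points for Dlx3 and Msx2 and far right for Prrx1 and Prrx2, and the PICT points are far left for Barx1 and Irx1.

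Of the 6 TALE cofactors, 5 lay at or above the median on at least 1 array, against 69.3% of all genes. On all 3 arrays 3 did, against 56.4% of all genes. Meis1, a partner of Hox and Pbx proteins, had 217 in PICT, 154 in OMCT and 87.0 in PCT, and no relative difference past 2-fold, the largest being 0.64 for PICT minus PCT (1.24 as deposited). Meis2, which in mice is needed in cranial crest cells, had 202 in PICT, 76.5 in OMCT and 142 in PCT. It was higher in PICT than in OMCT (1.33) and lower in OMCT than in PCT (-1.45, or -0.83 as deposited). Meis3 ran the other way, with 82.5 in PICT, 142 in OMCT and 22.1 in PCT, and was higher in OMCT than in PCT (1.67). OMCT was thus the lowest array for Meis2 and the highest for Meis3.

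Pbx2, a widely expressed partner of Hox proteins, had 208 in PICT, 251 in OMCT and 160 in PCT, with relative differences of -0.24 for PICT minus PCT, -0.24 for PICT minus OMCT and 0.00 for OMCT minus PCT. Pbx3 had 49.1 in PICT, 85.5 in OMCT and 64.5 in PCT, with -0.94 for PICT minus PCT after centring and -0.34 as deposited, both under 2-fold. Pbx4 stayed below the median on all arrays, at 9.05 in PICT, 17.2 in OMCT and 6.12 in PCT.

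Among the T-box genes, Tbx18 was the 1 member counted as higher in PICT than in PCT. Tbx18, a gene of mesenchyme around the heart, ureter and somites and of adult pericytes, had 95.2 in PICT, 50.7 in OMCT and 6.49 in PCT. Its relative difference was 2.18 for PICT minus PCT and 0.83 for PICT minus OMCT. OMCT minus PCT was 1.35, not counted because the OMCT signal lay under its median. The gene has 1 probe set, and its PCT signal was barely above the trp control of that array.

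Tbx2 and Tbx3 are sister repressors of limb, heart and gland development. Tbx2 had 79.1 in PICT, 178 in OMCT and 187 in PCT, and by this brightest probe set was lower in PICT than in PCT (-1.76) and than in OMCT (-1.07). Its other probe sets gave -0.64 and -0.04 for PICT minus PCT and -0.08 and 0.24 for PICT minus OMCT, so the Tbx2 difference rests on 1 of 3 probe sets. Tbx3 had 65.9 in PICT, 95.1 in OMCT and 21.6 in PCT, and was higher in OMCT than in PCT (1.16). Of its other probe sets, 2 gave 1.53 and 1.11 and 1 gave -0.24. The remaining T-box members, Tbx4, Tbx5 and Tbx19, did not exceed an intensity of 22.6 on any array.

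**Figure D4:**
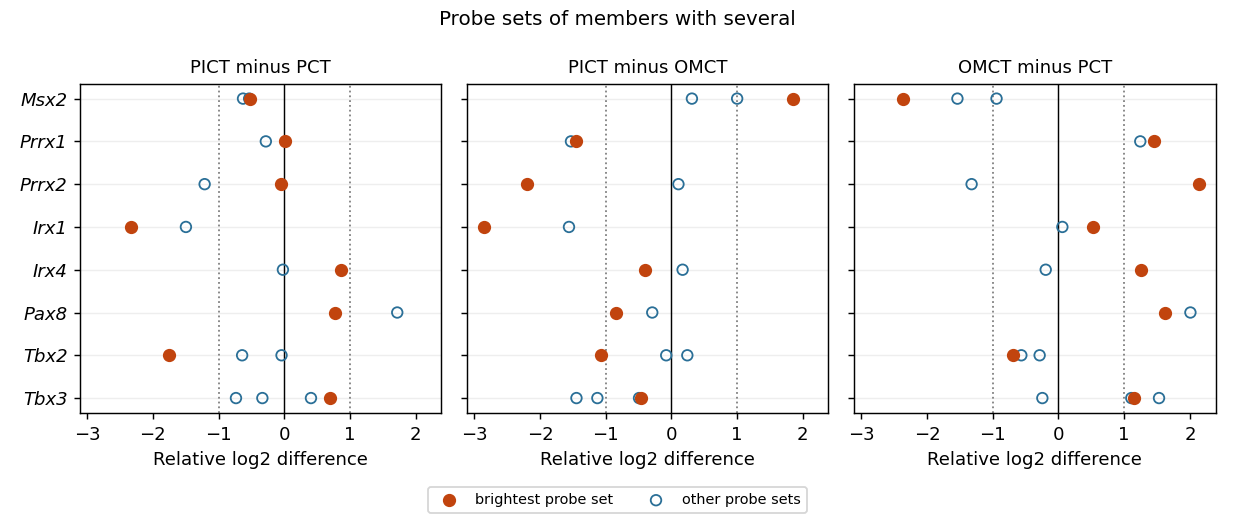
Relative log2 differences of every probe set for 8 members that have several and passed the 2-fold rule, in the 3 comparisons; red points are the brightest probe set of a gene, open circles its others, and dotted lines mark -1 and 1. Probe sets of Msx2, Prrx1 and Irx1 fall on the same side of 0 wherever the brightest passes 2-fold. Those of Prrx2, Irx4 and Tbx3 fall on both sides in OMCT minus PCT, as do those of Prrx2 and Tbx2 in PICT minus OMCT.

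Of the Iroquois genes, which pattern the heart, limb and neural tube, Irx1 was low in PICT. It had 5.93 in PICT, 97.8 in OMCT and 39.6 in PCT, with relative differences of -2.85 for PICT minus OMCT and -2.33 for PICT minus PCT. The PICT signal was not above the trp control, so Irx1 was at least 6.19-fold lower in PICT than in OMCT and at least 4.32-fold lower than in PCT, with PICT set at that control (8.36) on the offset scale. A second, dimmer probe set, also not above the control in PICT, was at least 2.21-fold lower in PICT than in OMCT and at least 2.12-fold lower than in PCT. Irx4, a ventricle gene of the heart, had 149 in PICT, 202 in OMCT and 48.5 in PCT, and was higher in OMCT than in PCT (1.26), a difference that its dim second probe set (-0.19) did not share. Irx3 had 61.2, 97.1 and 28.0 in PICT, OMCT and PCT, with no difference past 2-fold.

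Pax8, a gene of thyroid and kidney, had 29.4 in PICT, 60.5 in OMCT and 6.03 in PCT, and was higher in OMCT than in PCT (1.62, or 0.69 with the offset at the median of all values). Its second probe set had 42.4 in PICT, 54.6 in OMCT and 1.65 in PCT, not above the trp control in PCT, and was at least 2.88-fold higher in OMCT than in PCT. Six4, a gene of muscle and kidney precursors, had 43.0, 60.4 and 14.2 in PICT, OMCT and PCT. Its OMCT minus PCT was 0.97, just under 2-fold, and 1.60 as deposited. The other 15 of the 20 members in this group, among them Lhx1 and Lhx2, Pax2 and Pax6 and Six3 and Six6, lay below the median of every array.

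Most Hox genes were near the bottom of the arrays, and only Hoxd8 and Hoxd9 reached an array median. Hoxa7, Hoxd3 and Hoxd10 lay between, with highest percentiles of 41.7 (PCT), 38.1 (OMCT) and 39.4 (OMCT). Of 22 Hox genes, 20 lay below the array median on all 3 arrays and 10 did not exceed the trp control on any. On PICT 14 of 22 were not above that control, against 13.4% of all genes, on OMCT 11, against 7.62%, and on PCT 14, against 13.7%. The median Hox intensity was 7.02 in PICT, 3.94 in OMCT and 3.84 in PCT. All 5 Hoxa genes lay between 0.340 and 22.6 on these arrays, all 6 Hoxb genes between 0.127 and 11.3, and all 4 Hoxc genes between 0.129 and 10.1. Hoxa7, a trunk gene, had 17.5 in PICT, 16.7 in OMCT and 22.6 in PCT.

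Hoxd8 and Hoxd9, which act in the trunk and limbs, were the 2 Hox genes that reached an array median. Hoxd8 had 33.7 in PICT, 102 in OMCT and 42.5 in PCT, which placed it at percentile 39.3 of the PICT array, 62.6 of OMCT and 54.6 of PCT. It was lower in PICT than in OMCT (-1.37), and PICT minus PCT was -0.88 (-0.27 as deposited). Hoxd9 had 19.9 in PICT, 70.5 in OMCT and 34.6 in PCT, and was lower in PICT than in OMCT (-1.45) and in PCT (-1.20, or -0.60 as deposited). Its PCT signal lay just above the array median of 34.3. With the offset at the median of all values, PICT minus OMCT was -0.86 for Hoxd8 and -0.79 for Hoxd9, under 2-fold. All measured Hoxa, Hoxb and Hoxc genes thus lay below the median of every array, and Hoxd8 and Hoxd9 lay above it in OMCT and PCT.

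The next gene in the cluster, Hoxd10, had 10.4 in PICT, 34.2 in OMCT and 14.1 in PCT, below the medians, with -1.16 for PICT minus OMCT. In all of Hoxd8, Hoxd9 and Hoxd10 the OMCT intensity was highest and the PICT intensity lowest. The order is found in 11.4% of all genes, so it is not particular to these neighbours. Irx1, Dlx1, Dlx5, Barx1, Pbx3, Tbx19, Hoxc9, Lhx4 and Pitx3 also had it, several of them dim. These genes were grouped with their values known, so that share does not measure how rare the grouping is. As deposited, PICT minus PCT was -0.27 for Hoxd8 and -0.26 for Hoxd10, under the SD of 0.44 between probe sets, and -0.60 for Hoxd9. The step from PICT to PCT is therefore not read for Hoxd8 and Hoxd10. Hoxd11, the neighbour on the far side, had 8.34 in PICT, 1.70 in OMCT and 14.3 in PCT, and Hoxd4, the neighbour of Hoxd8, had 12.3, 9.04 and 2.05. Hoxd11 was not above the trp control in PICT and OMCT, nor Hoxd4 in PCT, so no order is read for either. Hoxd3 had 30.9 in PICT, 32.1 in OMCT and 18.3 in PCT by its brighter probe set, with differences from -0.05 to -0.02, and its second probe set was dimmer, at 1.69 in PICT (not above the trp control), 8.83 in OMCT and 7.36 in PCT.

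**Figure D5:**
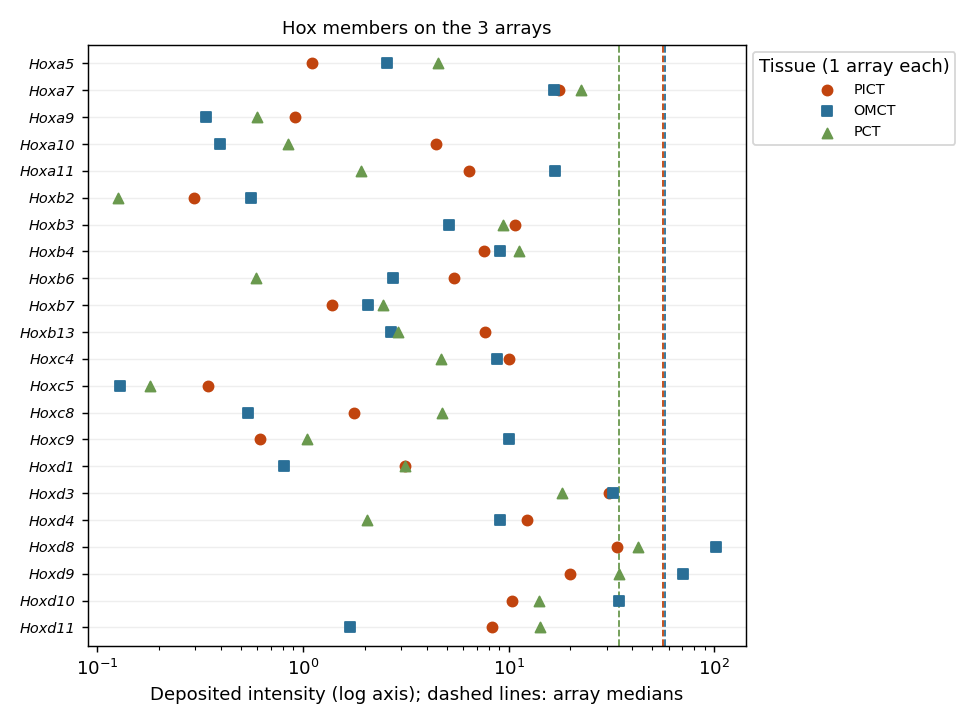
Deposited intensity (log axis) of the 22 Hox members, 1 point per tissue, ordered by cluster and number; dashed lines are the array medians. Of all points, only the OMCT and PCT points of Hoxd8 and Hoxd9 lie at or right of the median line of their own array.

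The promoters of Hoxd8, Hoxd9 and Hoxd10 are shown because OMCT had the highest intensity for each of these neighbours. They are the 250 bases before the gene start, from RefSeq on GRCr8, all on the plus strand, at chr3:80014973-80015222, chr3:80007756-80008005 and chr3:80001697-80001946. Capitals mark the same motifs as before, and no matches overlap.
Hoxd8: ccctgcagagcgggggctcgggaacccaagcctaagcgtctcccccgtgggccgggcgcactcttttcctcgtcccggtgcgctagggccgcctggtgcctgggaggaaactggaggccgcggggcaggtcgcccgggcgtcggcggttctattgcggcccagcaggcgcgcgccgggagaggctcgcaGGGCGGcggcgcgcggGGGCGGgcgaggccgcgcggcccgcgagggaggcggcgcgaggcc
Hoxd9: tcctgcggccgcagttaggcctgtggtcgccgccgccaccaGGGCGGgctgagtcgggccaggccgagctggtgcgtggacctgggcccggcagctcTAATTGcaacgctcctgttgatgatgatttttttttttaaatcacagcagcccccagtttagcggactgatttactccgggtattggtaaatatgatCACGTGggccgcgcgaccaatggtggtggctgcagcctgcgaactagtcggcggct
Hoxd10: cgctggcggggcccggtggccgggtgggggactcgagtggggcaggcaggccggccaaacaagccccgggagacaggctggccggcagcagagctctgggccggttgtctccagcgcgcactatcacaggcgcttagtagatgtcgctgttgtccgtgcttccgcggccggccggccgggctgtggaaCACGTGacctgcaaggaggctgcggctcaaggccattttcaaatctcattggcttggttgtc
Hoxd8 held 2 matches to GGGCGG and was 78.8% G or C with 38 CpG dinucleotides. Hoxd9 held 1 match to GGGCGG and 1 each to the core TAATTG and the E-box CACGTG, and Hoxd10 held 1 to CACGTG, with 20 and 21 CpG dinucleotides. TAATTG is held by 7.31% of all promoter windows of this length, TAATTA by 4.86% and CACGTG by 5.59%.

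Genes that other work places around these members are regulators of crest and jaw, the retinoic acid pathway and the Polycomb and trithorax proteins. Of 22 measured crest and jaw regulators, 2 passed as lower and 0 as higher for PICT minus PCT, against 3.37% and 3.98% of all genes. For PICT minus OMCT 4 were lower and 1 higher, against 4.46% and 4.15%. For OMCT minus PCT 5 were higher and 1 lower, against 5.66% and 4.81%. As deposited, PICT minus PCT gave 1 lower and 1 higher of these, against 0.9% and 14.1% of all genes. OMCT minus PCT gave 5 higher and 0 lower as deposited, against 17.6% and 2.1%. Bmp4, a growth factor that induces Msx1 in tooth mesenchyme of mice, had 37.6 in PICT, 740.0 in OMCT and 62.5 in PCT. Its differences were -1.22 for PICT minus PCT (-0.62 as deposited, under 2-fold) and 2.77 for OMCT minus PCT, and OMCT was the high array.

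Twist1 (a mesenchymal regulator), Foxf1 and Shox2 (a palate and limb gene) had the order of Prrx1, lower in PICT than in OMCT at -1.37, -1.84 and -1.28 and higher in OMCT than in PCT at 1.64, 1.46 and 1.84. Tfap2b, a gene of crest and epithelium, had the order of Dlx3, with 1.12 for PICT minus OMCT and -1.56 for OMCT minus PCT (-0.94 as deposited, under 2-fold). Sox10, which marks crest and Schwann cells, had 3.20 in PICT, 36.8 in OMCT and 35.3 in PCT. The PICT signal was not above the trp control, so Sox10 was at least 3.93-fold lower in PICT than in PCT. Of 5 measured Schwann cell and nerve markers, Sox10 included, 4 passed as lower (3 as deposited) and 0 as higher for PICT minus PCT. Of all genes 3.37% passed as lower (0.9% as deposited) and 3.98% as higher. The sums of these markers were 485 in PICT, 612 in OMCT and 944 in PCT.

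Retinoic acid is a known inducer of Hox genes in the trunk. Of 16 measured genes of its pathway, 2 passed as lower and 0 as higher for PICT minus PCT, 4 as lower and 2 as higher for PICT minus OMCT, and 3 as higher and 2 as lower for OMCT minus PCT. As deposited, PICT minus PCT gave 1 lower and 1 higher of these and OMCT minus PCT 5 higher and 2 lower. The shares of all genes beside these counts are those given for the crest and jaw regulators. Aldh1a2, which makes retinoic acid, had 53.2 in PICT, 323 in OMCT and 43.9 in PCT, with -2.40 for PICT minus OMCT and 2.04 for OMCT minus PCT. Cyp26b1, which degrades it, had 283 in PICT, 838 in OMCT and 164 in PCT, with -1.52 and 1.67 for the same comparisons. A gene for synthesis and a gene for breakdown were thus both highest on OMCT. Crabp2, a binding protein of retinoic acid, was lowest there, with 2205 in PICT, 515 in OMCT and 1548 in PCT.

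Stra6, a retinol transporter, was higher in PICT than in OMCT at 1.90. Rdh10, which oxidises retinol, was lower in PICT than in PCT at -1.63 and lower in OMCT than in PCT at -1.84. Crabp1, the other cellular binding protein, was lower in PICT than in OMCT at -1.50. Polycomb proteins keep Hox genes silent, and trithorax proteins keep them active. Of 21 measured genes of both groups, 19 lay at or above the median on all 3 arrays, against 56.4% of all genes. None passed 2-fold in PICT minus PCT or PICT minus OMCT, and 1, Cbx2, did in OMCT minus PCT, at -1.02 (-0.39 as deposited). Of all genes 3.98% passed as higher and 3.37% as lower for PICT minus PCT. The shares were 4.15% and 4.46% for PICT minus OMCT, and 5.66% and 4.81% for OMCT minus PCT. Counts among 21 genes are too small to be set apart from those shares. As deposited, 3 were higher and 0 lower in PICT minus PCT, against 14.1% and 0.9% of all genes, namely Rnf2 (1.26), Asxl1 (1.08) and Suz12 (1.01). In OMCT minus PCT 3 were higher and 0 lower as deposited, against 17.6% and 2.1%. The core subunits Ezh2, Eed and Suz12 differed by -0.28, 0.27 and 0.41 for PICT minus PCT and by -0.17, 0.25 and 0.26 for PICT minus OMCT.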

How the data were processed

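Expression was measured on rat GeneChip arrays, 1 each for PICT, OMCT and PCT. Per the labels' protocols, tissue was laser-microdissected, total RNA was purified on RNeasy columns, and its labelled copies were made with a GeneChip 3' IVT Express kit. The deposited values are linear intensities per probe set, as their range shows, and the sources used here do not give how the authors summarised and scaled them. The table held 31099 probe sets. The platform annotation of 2016 gave 1 symbol to 20826 of them, controls left out, and several to 436, which were not used. Each gene was read from its brightest probe set, giving 14217 genes, and 64 of 65 members matched RefSeq (GRCr8) by gene ID. Log2 values, with an offset of 8.56 (the 20th percentile), were centred on each array's median. Members, gene lists and rules were chosen with earlier results of these data known. Genes named with values are members past the 2-fold rule, members at or above the median on all 3 arrays, the 5 Hox genes of highest mean level, paralogs, and up to 6 genes past the rule of each further list; the other genes named were chosen after their values were seen. The number of arrays limits the precision. Python 3.11.15, pandas 2.3.3 and numpy 2.4.6 were used, and the counting was tested on simulated data.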

Additional observations from a re-analysis of the deposited data

How the results depend on the processing

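Other scalings, offsets, filters and probe choices were tried for the counts of members higher or lower in each comparison. Counts of members at or above the median were tried with the probe set mean and a higher level, and list counts only as deposited, an alternative chosen after seeing the data. As deposited, PICT minus PCT gave 6 higher and 2 lower members, against 14.1% and 0.9% of all genes. OMCT minus PCT gave 12 and 2, against 17.6% and 2.1%. Members higher in PICT than in PCT numbered 2 with arrays scaled to a common trimmed mean, against 4.3% of all genes. They numbered 2 with an offset of 1, against 4.21%, and 3 at a log2 difference of 0.8, against 5.74%. With the offset at the median of all values, PICT minus PCT gave 2 lower members, against 0.914% of all genes. At that offset PICT minus OMCT gave 3 lower, against 2.67%, and OMCT minus PCT 4 higher and 2 lower, against 4.49% and 2.36%. With the mean over all probe sets of a gene, PICT minus PCT gave 2 lower members, against 2.77% of all genes. OMCT minus PCT then gave 4 higher ones, against 4.9%. Without a filter on low values, 11 were lower in PICT than in PCT, against 6.65% of all genes. Likewise 10 were lower in PICT than in OMCT, against 6.34%, and 9 lower in OMCT than in PCT, against 8.18%. These counts against PCT include dim genes, and centring alone gives a gene without signal -0.60 or -0.62. With the level set at the 60th percentile, 2 were lower in PICT than in PCT, against 2.73% of all genes. Only 1 Hox gene, Hoxd8, reached that level. The other counts stayed within 1.5 times, and the cause of these shifts was not tested. Of 25 single differences past the 2-fold rule, 11 held under all 7 settings of scaling, offset and probe choice, 14 fell under the rule in at least 1 (10 of them with the offset at the median of all values, in Hoxd8, Hoxd9, Meis2, Pax8, Pax9, Pitx1, Tbx2 and Tbx3), and 0 changed sign. Scaling the arrays to a common median before the offset was also chosen after seeing the data. No paired analysis was possible because each tissue has 1 array, which also leaves no replicate to leave out.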

Other observations

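Markers of further cell types were counted on the same arrays. Summed deposited intensities of 7 endothelial markers, not scaled for the array medians, were 2045 in PICT, 3647 in OMCT and 2367 in PCT. Of these markers 4 were lower in PICT minus PCT (2 without centring), against 3.37% of all genes (0.9%). In PICT minus OMCT 4 were lower, against 4.46%. The 8 macrophage markers summed to 2538 in PICT, 4116 in OMCT and 265 in PCT. In OMCT minus PCT 7 of them were higher, against 5.66% of all genes. The 6 markers of cementum or periodontal ligament summed to 6566 in PICT, 11586 in OMCT and 1887 in PCT. The 4 measured markers of simple or junctional epithelium differed among themselves. Krt19 had an intensity of 20.3 in PICT, 82.6 in OMCT and 603 in PCT, and Krt7 had 226 in PICT, 6.25 in OMCT and 550 in PCT. Krt8 had 38.8 in PICT, 19.0 in OMCT and 15.4 in PCT, and Krt18 did not exceed 11.2 on any array. Among 13 skeletal muscle markers, 2 reached the array median. Myh1 had 3339 in PICT, 1620 in OMCT and 2681 in PCT, and Tnnt3 had 115, 80.7 and 46.1 in that order. In contrast, Acta1, Myh2, Myh4 and Ckm did not exceed 23.0 on any array. The muscle regulators Myod1 and Myf6 were not above the trp control on any array. Of 7 adipocyte markers 2 reached an array median, and they ran in opposite directions: Car3 had 37.8 in PICT, 60.5 in OMCT and 1575 in PCT, and Fabp4 had 275 in PICT, 74.2 in OMCT and 10.2 in PCT. Of 6 bone markers 4 reached the median on at least 1 array, and of 3 measured tooth cell markers, 0 did. For these counts and those of the muscle and adipocyte markers, the share of all genes was 69.3%. For OMCT minus PCT 2 bone markers (Ibsp and Alpl) passed as higher and 2 (Bglap and Dmp1) as lower. The shares of all genes were 5.66% and 4.81%.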
